A study of Mus musculus with 6 samples.

Results

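The 10 genes described here carry out negative feedback on the ERK kinase cascade or are switched on by it within minutes. They are the MAP kinase phosphatases Dusp4, Dusp5 and Dusp6, the Sprouty and Spred inhibitors Spry1, Spry2, Spry4 and Spred1, and the transcription factors Egr1, Egr2 and Egr3. They were chosen by name, with earlier results of these data in view and because pyruvate replicate 1 departed from its group in them. All 10 were found among the 32285 genes of the count table, and all 10 were among the 14912 genes with enough counts to be tested. The RNA came from GS cells, germline stem cells that are the cultured form of mouse spermatogonial stem cells, of a line named DBA-GFP with genotype WT. The pyruvate group consisted of 3 libraries from cells in a medium named for 8 mM pyruvate. The control group consisted of 3 libraries from cells in complete medium. All 6 libraries are of this 1 line, the labels give no length of culture, and they do not say that libraries came from separate cultures, so the spread between libraries may be technical.

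Growth factors bind receptor tyrosine kinases, which load Ras with GTP and start the relay from Raf through MEK to ERK. Active ERK enters the nucleus and induces early genes such as the Egr factors, and it also induces its own brakes. Dusp5 and Dusp6 remove phosphate from ERK in the nucleus and in the cytoplasm, while Sprouty and Spred proteins act between the receptor and Raf. Cultured spermatogonial stem cells are maintained with GDNF and FGF2, ligands whose receptors signal through this cascade among others. The comparison is between culture media, and these genes show it for transcripts of this feedback and early response. RNA counts do not measure ERK activity.

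Promoter sequences are shown for 4 members in which a motif for nuclear factors downstream of ERK was found. The search covered 6 of the members, in RefSeq windows on GRCm38.p6 running from 250 bases before the annotated start to 50 after it. The motifs searched on both strands were the CArG box, which binds serum response factor, TGACG, part of the cyclic AMP response element, TGANTCA, which binds AP-1, CGGAAG, an ETS core, and GCGNGGGCG, which takes in the Egr site. No match overlapped another, and in Spry1 and Spry2 none of these letters was found. In the sequences below, capitals mark the matches, and all are given on the strand of the gene, here the plus strand.
Dusp5 (chr19:53528895-53529194): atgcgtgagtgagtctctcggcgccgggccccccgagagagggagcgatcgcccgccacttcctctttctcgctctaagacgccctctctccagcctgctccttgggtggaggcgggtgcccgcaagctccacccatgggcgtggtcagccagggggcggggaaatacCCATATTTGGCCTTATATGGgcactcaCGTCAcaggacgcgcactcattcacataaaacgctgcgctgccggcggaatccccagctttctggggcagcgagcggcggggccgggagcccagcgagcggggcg
Egr2 (chr10:67537619-67537918): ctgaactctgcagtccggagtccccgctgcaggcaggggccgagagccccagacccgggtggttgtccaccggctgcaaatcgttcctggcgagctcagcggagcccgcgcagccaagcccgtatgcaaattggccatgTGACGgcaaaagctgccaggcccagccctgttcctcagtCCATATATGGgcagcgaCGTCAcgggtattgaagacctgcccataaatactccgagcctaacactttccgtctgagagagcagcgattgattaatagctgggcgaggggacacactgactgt
Dusp6 (chr10:99262981-99263280): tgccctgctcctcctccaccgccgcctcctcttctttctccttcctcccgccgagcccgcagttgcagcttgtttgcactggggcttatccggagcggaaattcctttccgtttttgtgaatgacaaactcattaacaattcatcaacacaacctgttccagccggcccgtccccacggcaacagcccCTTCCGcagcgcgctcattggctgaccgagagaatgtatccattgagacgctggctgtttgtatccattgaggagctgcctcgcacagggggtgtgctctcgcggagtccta
Spred1 (chr2:117120821-117121120): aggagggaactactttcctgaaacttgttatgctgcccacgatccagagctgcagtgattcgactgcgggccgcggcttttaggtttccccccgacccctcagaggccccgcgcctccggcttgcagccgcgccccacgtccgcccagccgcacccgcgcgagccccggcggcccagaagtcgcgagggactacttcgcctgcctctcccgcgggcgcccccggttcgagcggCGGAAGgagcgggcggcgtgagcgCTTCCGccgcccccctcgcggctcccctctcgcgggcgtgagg
Dusp5 had CArG boxes starting 82 and 72 bases upstream of its start, side by side, and TGACG on the minus strand starting 55 bases upstream. Egr2 had the CArG box and the minus-strand TGACG at the same distances, 72 and 55 bases upstream, and a further TGACG at 111. Egr2 has 5 annotated starts with a window, and that shown is the window with the most matches. A CArG box occurred in 1.63% of the 32851 windows of this length and TGACG in 20.8%. In Dusp6 the match was CGGAAG on the minus strand, 62 bases upstream. Spred1 had this core 17 bases upstream of the start used for its window and again just after it. The GENCODE start of Spred1 given below, 117121374, lies downstream of this whole window. CGGAAG occurred in 16.9% of windows, TGANTCA in 7.81% and GCGNGGGCG in 5.55%. These matches describe letters in a window and are not shown to be bound sites.

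Library totals ran from 21830090 to 25562768 counts in the pyruvate group and from 20918312 to 26413080 in the control group, so the floor of 3 counts lay between 0.114 and 0.143 CPM, counts scaled to library size. This floor covers counting error only, and every member had at least 423 counts in every library. Germ cell markers summed to 3986 to 4198 CPM in the pyruvate libraries and to 3899 to 4509 CPM in the control libraries, with 12 of 12 present, the most abundant being Dazl. Fibroblast and feeder markers summed to 406 to 451 CPM in the pyruvate libraries and 424 to 494 CPM in the control libraries. Fn1 gave most of this, while 3 of the 16, among them Dcn and Lum, averaged under 1 CPM. Sertoli markers stayed at 26.5 to 31.8 and 28.2 to 31.7 CPM in the pyruvate and control libraries, Leydig markers at 2.64 to 2.86 and 2.91 to 4.05, endothelial markers at 28.3 to 36.8 and 34.7 to 35.96, and immune markers at 8.91 to 10.96 and 7.54 to 13.8. Wt1, Star, Kdr and Cd68 were the most abundant of these lists, the Leydig genes Hsd3b1 and Insl3 and the macrophage gene Adgre1 had no counts, and no marker passed the test described below. In pyruvate replicate 1 the sums were 3986 CPM for germ cell, 451 for feeder and 28.3 for endothelial markers, and the part of these values in the results that follow was not tested. Over all genes tested, control replicate 2 departed most from its group mates, by a median of 0.25 in absolute log2 CPM, against 0.16 in pyruvate replicate 1 and 0.10 to 0.17 in the other 4 libraries.

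Among the phosphatases, Dusp6 and Dusp4 were low in pyruvate replicate 1 and Dusp5 was nearly level. Dusp6, the cytoplasmic ERK phosphatase, stood at 137, 248 and 254 CPM in pyruvate replicates 1, 2 and 3, against 232, 268 and 232 CPM in control replicates 1, 2 and 3. Pyruvate replicates 2 and 3 lay inside or above the lower controls, and replicate 1 alone lay under all of them. Dusp4, a nuclear phosphatase of ERK, had 69.2, 114 and 129 CPM in the pyruvate libraries and 125, 154 and 123 CPM in the control libraries, so that the groups overlapped. In bulk RNA such values do not tell fewer cells that express a gene from less RNA per cell. Dusp5, the nuclear ERK phosphatase, had 131, 149.8 and 156 CPM in the pyruvate libraries and 153, 133 and 142 CPM in the control libraries. Its lowest library was again pyruvate replicate 1, but control replicate 2 was almost as low. An exon of Dusp5 overlaps an annotated gene on the opposite strand, and whether counting used strand is unknown here, so its counts are uncertain to that extent.

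**Figure D1:**
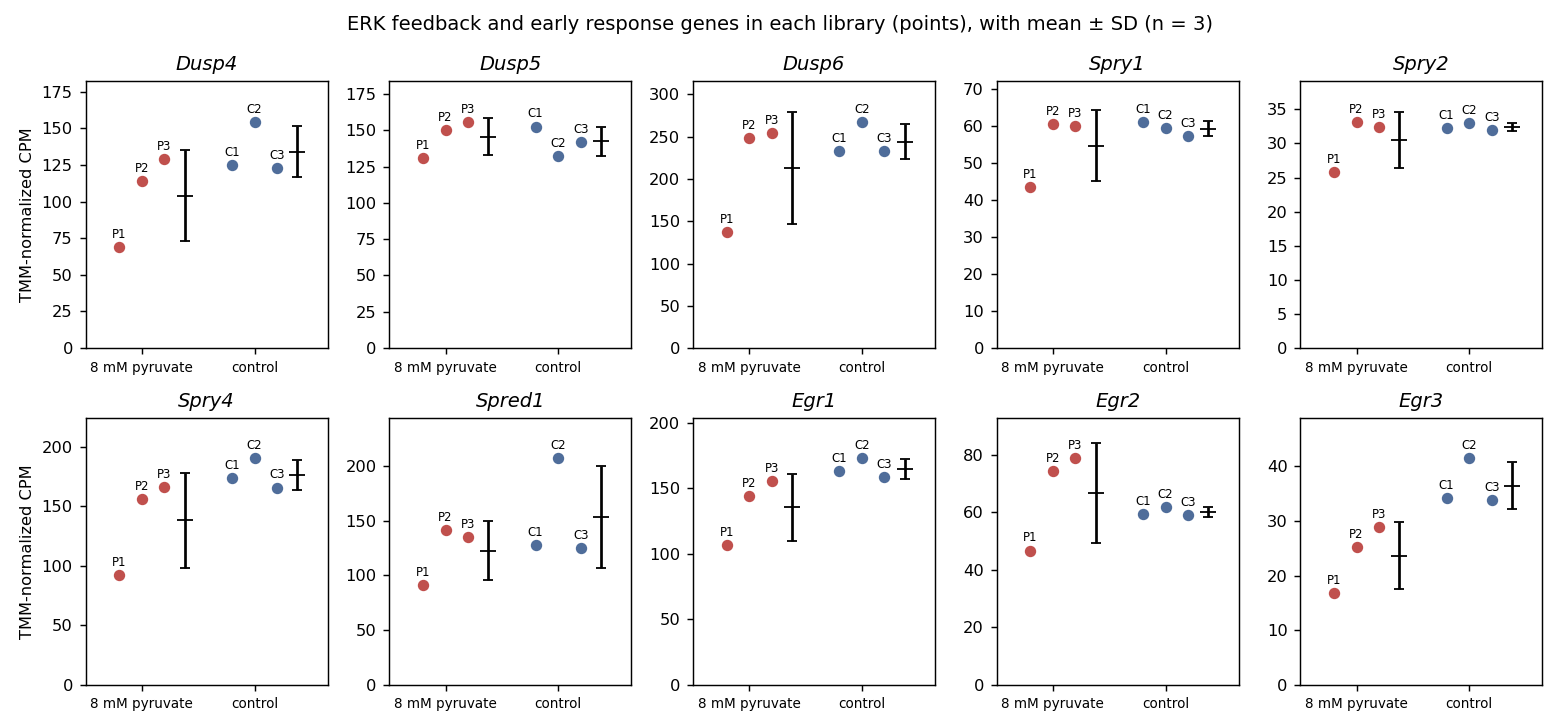
TMM-normalized CPM of the 10 genes in each library, one panel per gene, with the 8 mM pyruvate libraries (P1 to P3) left of the control libraries (C1 to C3) and bars for mean ± SD (n = 3). P1 is the lowest point of each panel, from 16.9 CPM in Egr3 to 137 CPM in Dusp6.

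Spry4 and Spred1 were the more variable of the receptor-side inhibitors, and Spry1 and Spry2 were nearly flat apart from pyruvate replicate 1. Spry4, which restrains Ras activation, had 92.5, 156 and 166 CPM in the pyruvate libraries and 174, 190.4 and 166 CPM in the control libraries. Pyruvate replicate 3 only just exceeded control replicate 3, and the other pyruvate libraries lay under all controls. Spry2, a Sprouty inhibitor of growth factor receptors, had 25.7, 33.2 and 32.4 CPM in the pyruvate libraries and 32.2, 33.0 and 32.0 CPM in the control libraries. Spry1, its relative with a known role in restraining GDNF signals in the kidney, had 43.6, 60.6 and 59.9 CPM in the pyruvate libraries and 61.1, 59.4 and 57.2 CPM in the control libraries. For both genes 5 libraries were alike and pyruvate replicate 1 was lower. Spry1 also overlaps an opposite-strand gene model. Spred1, which brings neurofibromin to Ras, had 91.7, 141 and 135 CPM in the pyruvate libraries and 128, 207 and 125 CPM in the control libraries. Its spread came from both groups, with control replicate 2 high and pyruvate replicate 1 low.

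The 3 Egr factors did not share a pattern once pyruvate replicate 1 was set aside. Egr3, an early transcription factor, had 16.9, 25.2 and 28.9 CPM in the pyruvate libraries and 34.2, 41.4 and 33.8 CPM in the control libraries. All 3 pyruvate libraries lay below all 3 control libraries. Egr1, the most studied early target of ERK, had 106, 144 and 155 CPM in the pyruvate libraries and 163, 173 and 158 CPM in the control libraries. Here too the groups did not overlap, but pyruvate replicate 3 came close to control replicate 3. Egr2 had 46.7, 74.3 and 78.6 CPM in the pyruvate libraries and 59.2, 61.9 and 58.9 CPM in the control libraries. Pyruvate replicates 2 and 3 lay above all controls and replicate 1 below all of them. Over all genes tested, the 3 pyruvate libraries lay below the 3 control libraries in 10.6% of genes, and nothing is read from 2 of 10 here because the genes were chosen with this comparison in view. Pyruvate replicates 2 and 3 lay above all controls in 14.7% of genes, against 1 of the 10, Egr2.

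Counts per kilobase of exon allow the members to be compared with each other. In the pyruvate libraries Dusp6 led with 68.0 ± 21.1 CPM per kb, followed by Dusp5 with 58.9 ± 5.20 and Dusp4 with 37.96 ± 11.3 (SD, n = 3 each). Egr1 and Spry4 came next with 30.2 ± 5.72 and 29.1 ± 8.41 CPM per kb. Egr2, Spry1, Spred1 and Spry2 followed between 19.6 and 14.6 CPM per kb, and Egr3 was last with 5.36 ± 1.40. The ranges of neighbours in this order overlapped except between Dusp5 and Dusp4 and between Spry2 and Egr3. In the control libraries the same 3 phosphatases led, with 77.96 ± 6.47 CPM per kb for Dusp6, 57.5 ± 4.04 for Dusp5 and 48.97 ± 6.42 for Dusp4, and Egr3 was again last with 8.28 ± 0.98. There the ranges of Dusp5 and Dusp4, of Spry4 and Egr1, and of Spred1 and Spry1 overlapped, and the other neighbours were apart.

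Pyruvate replicate 1 was the lowest of the 6 libraries in 10 of 10 members. It was the lowest in 23.4% of all genes tested, and since the members were picked with its departure known, the count is a description. On the log2 scale, its level minus the mean of pyruvate replicates 2 and 3 was -0.87 for Dusp6, -0.81 for Dusp4, -0.80 for Spry4, -0.71 for Egr2 and -0.67 for Egr3. The differences were smaller for Spred1 (-0.59), Egr1 (-0.49), Spry1 (-0.47) and Spry2 (-0.35), and smallest for Dusp5 (-0.22). Among all genes tested, 1.03% had a lower value than Dusp6 and 19.98% a lower one than Dusp5. In percent of the mean of its group mates, replicate 1 held 54.5% for Dusp6, 57.4% for Spry4 and 85.8% for Dusp5. The median over the members was -0.63, against 0.00 over all genes tested.

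**Figure D2:**
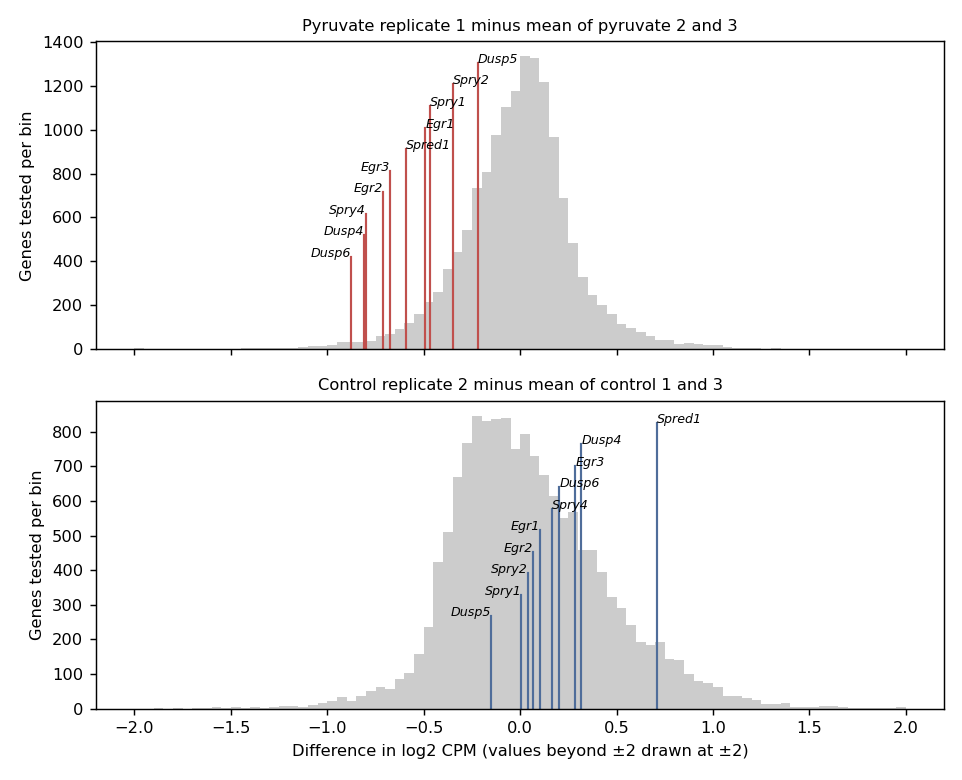
Histograms of all 14912 genes tested by the difference in log2 CPM between a library and the mean of its group mates (x axis) and number of genes per bin (y axis), for pyruvate replicate 1 above and control replicate 2 below; lines mark the 10 members. In the upper panel the members lie between -0.87 (Dusp6) and -0.22 (Dusp5), while in the lower panel they lie between -0.15 (Dusp5) and 0.71 (Spred1).

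GC content and transcript length moved with these departures. Across genes, the departure of pyruvate replicate 1 had a Pearson r of 0.34 with GC content and -0.22 with log length, and that of control replicate 2 had -0.51 and 0.44; genes share libraries and are not independent. With each library's trend on both properties removed, the median departure of the members in pyruvate replicate 1 was -0.63, the same to 2 decimals as before. Single members moved both ways. Spred1, whose transcript has the lowest GC content of the members at 41.2%, stood at -0.37 in place of -0.59 in pyruvate replicate 1 and at 0.19 in place of 0.71 in control replicate 2. Dusp5 stood at -0.34 in place of -0.22 in pyruvate replicate 1, and in control replicate 2 it changed sign, to 0.08 in place of -0.15. In control replicate 2, Dusp4 stood at 0.52 in place of 0.32 and Spry1 at 0.21 in place of 0.01. All 10 members remained below 0 in pyruvate replicate 1. Mitochondrial transcripts made up 1.56% of counts in pyruvate replicate 1, 2.03% and 1.55% in the other pyruvate libraries, and 1.89% to 2.31% in the control libraries. The part of mitochondrial share in the members' departure was not tested.

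**Figure D3:**
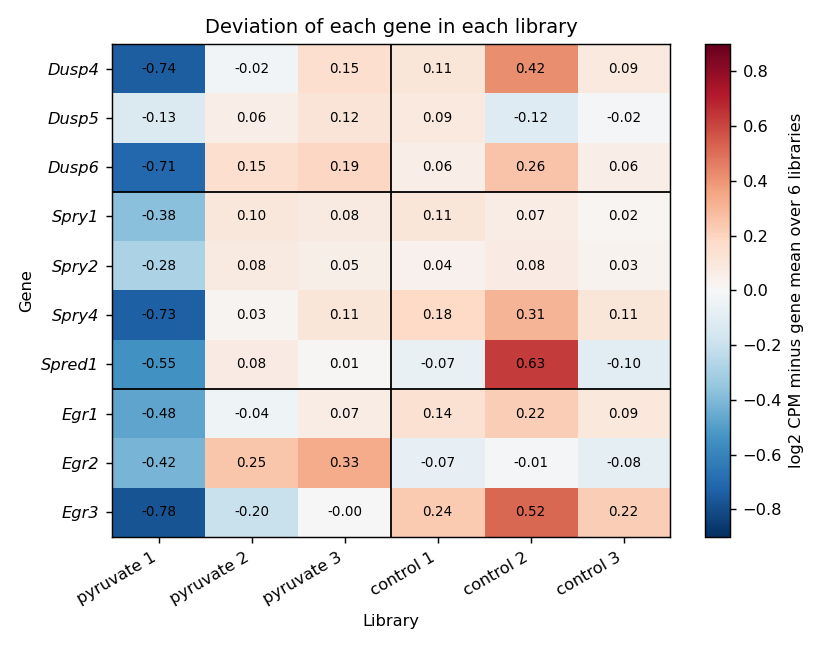
Log2 CPM of each gene (rows) in each library (columns) minus that gene's mean over the 6 libraries, in colour and as printed values, with the pyruvate libraries on the left. Pyruvate replicate 1 is negative in each row, down to -0.78 for Egr3, and control replicate 2 holds the highest value of the map, 0.63 for Spred1.

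In edgeR's quasi-likelihood fit over all genes, log2 fold changes of the members, pyruvate minus control, were below 0 for 8 of 10 and ran from -0.63 (SE 0.19) for Egr3 to 0.15 (SE 0.18) for Egr2. Below 0 lay 51.9% of all genes tested. The values were -0.37 (SE 0.21) for Dusp4, -0.35 (SE 0.20) for Spry4, -0.32 (SE 0.23) for Spred1 and -0.28 (SE 0.13) for Egr1. Dusp6 stood at -0.20 (SE 0.21), Spry1 at -0.12 (SE 0.13), Spry2 at -0.09 (SE 0.11) and Dusp5 at 0.03 (SE 0.09). The median was -0.24, against -0.01 over all genes. None (0) of the members passed Benjamini-Hochberg adjustment at 0.05, where 8 of 14912 genes, or 0.0536%, did (0.0201% higher and 0.0335% lower in pyruvate), and 2144 genes, or 14.4%, had an unadjusted p under 0.05. This contrast was in view when the members were chosen, so their fold changes are a description, and counts of members past the threshold, here and in the fits without a library, are set beside the share of all genes with nothing read from them.

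Leaving out pyruvate replicate 1 brought the members' median log2 fold change to -0.05, with 5 of 10 below 0. Dusp6 then stood at 0.05, Spry1 at 0.03 and Spry2 at 0.02, and Dusp4, Spry4 and Egr1 at -0.14, -0.13 and -0.13. Egr2 and Egr3 both moved upward, Egr2 from 0.15 to 0.35 (SE 0.09) and Egr3 from -0.63 to -0.43 (SE 0.13). With pyruvate replicate 1 left out 0.00666% of genes were called, and 0 members. Without control replicate 2 the median was -0.12 and Spred1 stood at -0.04, and 0 members were called, where 4.16% of genes were. Leaving out both of these libraries was a choice made after seeing the data. Control replicate 2 departed most from its mates over all genes. Pyruvate replicate 1 departed in the members, while over all genes its median absolute departure, 0.16, was below the 0.17 of control replicate 1. With both libraries left out, the members' median was 0.02. Egr2 (0.37, SE 0.06) and Egr3 (-0.34, SE 0.08) were then the 2 members past the threshold, in opposite directions, where 23.7% of all genes tested were called. Egr3 stayed below 0 and Egr2 above 0 in all 15 fits made here, Egr2 only just without pyruvate replicate 3 (0.01).

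**Figure D4:**
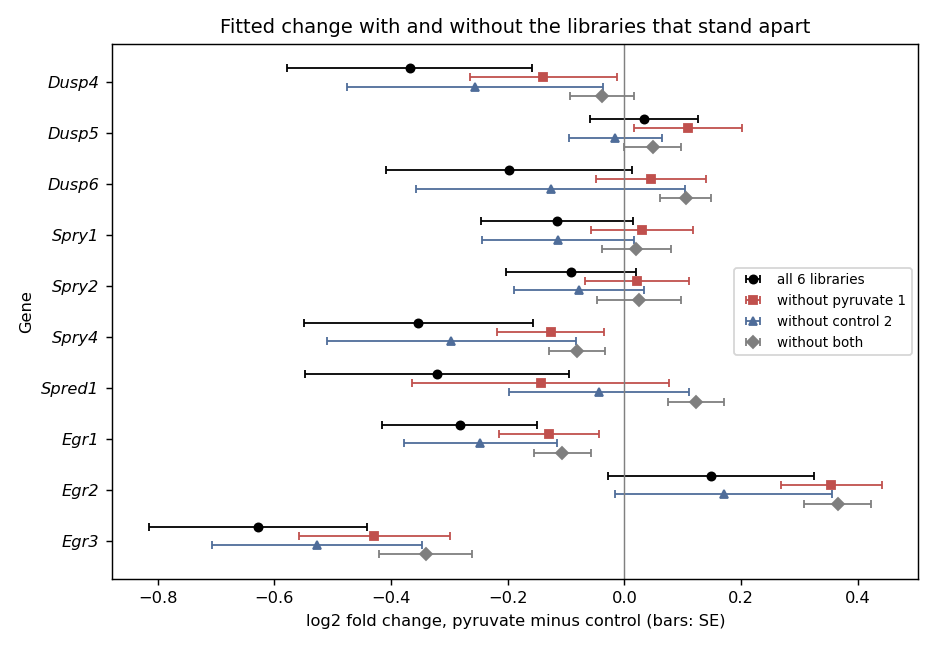
Fitted log2 fold change, pyruvate minus control (x axis), of each gene (y axis) with all 6 libraries, without pyruvate replicate 1, without control replicate 2 and without both; bars are SE. Egr3 stays between -0.63 and -0.34 and Egr2 between 0.15 and 0.37, while Dusp6 moves across 0 from -0.20 to 0.10.

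Members also followed each other to different degrees over the 6 libraries. The Pearson r of log2 CPM with the mean profile of the other 9 was 0.99 for Dusp4 and Spry4, 0.98 for Dusp6, 0.97 for Egr1 and Spry2 and 0.94 for Spry1. Egr3 had 0.88, Spred1 0.81, Egr2 0.66 and Dusp5 0.42. Since the members were chosen with the departure of pyruvate replicate 1 known, high values of r among them follow in part from that choice. The genes with the lowest 2 values, Dusp5 and Egr2, are those whose windows held a CArG box, among the 6 members searched. Dusp4 and Egr3 had no window at hand, and Egr1 and Spry4 were left out of the search. The overlap of low r with a CArG box is therefore a description and nothing is read from it. Of 10517 other named genes with at least 5 CPM, those most like the members' mean profile were Fam13c, Lrp11, Gfm2, Etv5 and Ube2v2, each with r = 0.99 over 6 libraries. In this profile pyruvate replicate 1 lies at -0.52 in log2 CPM and the other 5 libraries between 0.04 and 0.24, and with 6 libraries and this many genes the values of r are a description. Etv5, an ETS factor needed for self-renewal of spermatogonial stem cells, had 249, 337 and 363 CPM in the pyruvate libraries and 343, 375 and 328 CPM in the control libraries.

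The other genes of the pathway were taken from 7 lists by role, with 119 genes, of which 117 were tested. By edgeR's quasi-likelihood test with adjustment over all genes, 0 rose and 0 fell with all libraries, and the median log2 fold change was -0.04 against -0.01 over all genes. An unadjusted p under 0.05 was found for 19 of the 117, or 16.2%, near the 14.4% of all genes. DESeq2 called 2, or 1.71%, near the 2.3% it called over all genes. Among other feedback inhibitors 16 of 17 were tested, 11 lay below 0 and the median was -0.15. Spred2, a relative of Spred1, had 86.0, 108 and 109.5 CPM in the pyruvate libraries and 117, 166 and 122 CPM in the control libraries (log2 -0.41, SE 0.15, adjusted p = 0.276). Spred3 stood at -0.42 (adjusted p = 0.376), and Dusp9, an ERK phosphatase on the X chromosome, at 215 ± 3.31 CPM in pyruvate and 249.7 ± 19.6 CPM in control libraries (SD, n = 3 each; log2 -0.22, adjusted p = 0.268 in edgeR). Without control replicate 2, Dusp9 fell (log2 -0.28, adjusted p = 0.0230 in edgeR). Without pyruvate replicate 1 it stood at -0.23 and did not pass (adjusted p = 0.522 in edgeR). In that fit 0.00666% of all genes tested were called.

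Of 29 other immediate early and ERK-induced genes, 28 were tested, 16 lay below 0 and the median was -0.10. Ccnd1, the D-type cyclin of the G1 phase, had 98.0, 107 and 104 CPM in the pyruvate libraries and 149.5, 161 and 152 CPM in the control libraries. The groups were far apart for this gene, and pyruvate replicate 1 was close to its mates. Its log2 fold change was -0.58 (SE 0.07, adjusted p = 0.0592 in edgeR), and it passed without control replicate 2 (adjusted p = 0.00281) and in DESeq2 (adjusted p = 5.59e-07). Without pyruvate replicate 1 its log2 fold change was -0.55, but it did not pass (adjusted p = 0.226 in edgeR). In that fit 0.00666% of all genes tested were called. Mycn, a Myc family factor, stood at 138 ± 2.56 CPM in pyruvate and 163 ± 3.42 CPM in control libraries (SD, n = 3 each; log2 -0.24, adjusted p = 0.182 in edgeR). Atf3, a stress-induced factor, stood at 1.60 ± 0.33 CPM in pyruvate and 0.93 ± 0.11 CPM in control libraries (log2 0.77, adjusted p = 0.225 in edgeR, n = 3 each).

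Receptors and adaptors had a median of 0.00 with 10 of 20 below 0, and their genes of lowest p were Gab2 (0.25, adjusted p = 0.348 in edgeR), Fgfr4 (-0.39, adjusted p = 0.478) and Frs3 (0.19, adjusted p = 0.496). The core from Ras to ERK had a median of 0.04 with 9 of 19 below 0. There Rras, a Ras relative, stood at 0.39 (adjusted p = 0.232), the scaffold Ksr2 at 0.30 (adjusted p = 0.271) and the adaptor Ywhaz at -0.15 (adjusted p = 0.371), all in edgeR. Ras GTPase-activating proteins had a median of -0.02. Among them Rasa3, a GAP for Ras and Rap, had 175, 177 and 182 CPM in the pyruvate libraries and 119, 128 and 116 CPM in the control libraries, with the groups far apart (log2 0.56, SE 0.07, adjusted p = 0.0604 in edgeR). Without control replicate 2 it rose (adjusted p = 0.00148 in edgeR), and it also passed in DESeq2 (adjusted p = 4.97e-06). Without pyruvate replicate 1 its log2 fold change was 0.57, but it did not pass (adjusted p = 0.226 in edgeR). In that fit 0.00666% of all genes tested were called. Rasa4 stood at 0.33 (adjusted p = 0.288) and Rasal1 at 0.09 (adjusted p = 0.890). Exons of Ccnd1, Frs3, Rasa4, Spred3 and Nanos2 overlap those of other annotated genes.

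Nuclear factors that read ERK had a median of -0.04, with 9 of 16 below 0. Erf, an ETS repressor exported from the nucleus by ERK, had 90.8, 93.3 and 107 CPM in the pyruvate libraries and 129, 112 and 124 CPM in the control libraries (log2 -0.33, SE 0.09, adjusted p = 0.189 in edgeR). It fell without control replicate 2 (adjusted p = 0.0282 in edgeR). Without pyruvate replicate 1 it stood at -0.28 and did not pass (adjusted p = 0.488 in edgeR), in the fit that called 0.00666% of all genes tested. Etv3 stood at -0.44 (adjusted p = 0.258) and the repressor Cic at 0.20 (adjusted p = 0.317). Among 9 GDNF-responsive genes of cultured spermatogonia the median was -0.05. Bcl6b, a repressor induced by GDNF, had 189, 279 and 306 CPM in the pyruvate libraries and 369, 356 and 366 CPM in the control libraries (log2 -0.50, SE 0.16, adjusted p = 0.225 in edgeR). It was lowest in pyruvate replicate 1, like the members, while replicates 2 and 3 also lay under all controls. Cxcr4, a chemokine receptor, stood at -0.43 (adjusted p = 0.278) and Nanos2, an RNA-binding stem cell factor, at 0.52 (adjusted p = 0.239).

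**Figure D5:**
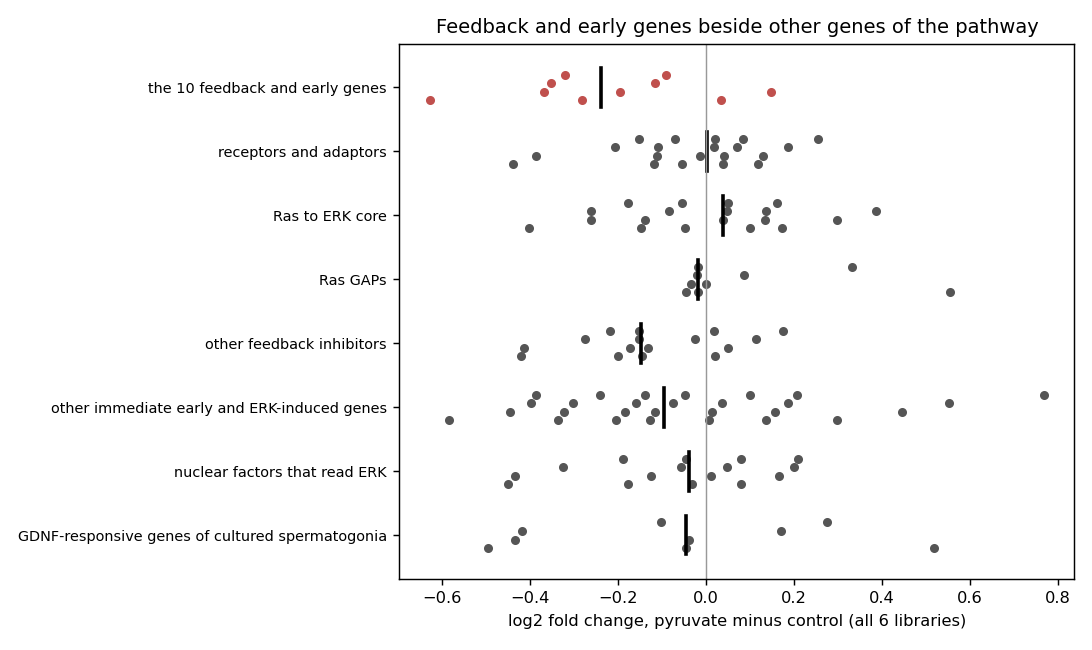
Log2 fold change, pyruvate minus control, with all 6 libraries (x axis) for the 10 members and for the tested genes of 7 other lists of the pathway (rows); points are genes and black lines are medians. The members' median is -0.24, and the other medians lie between -0.15 and 0.04.

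With pyruvate replicate 1 and control replicate 2 both left out, 23 of the 117 rose and 18 fell, or 41 in all, where 12.5% of all genes tested were called higher and 11.2% lower. Of the 28 tested early and ERK-induced genes 5 rose and 10 fell in that fit, and of the 9 Ras GTPase-activating proteins 5 rose. These 5 were Rasa3, described above, and Rasa1, Rasa2, Rasal2 and Nf1. With all libraries Rasa1, Rasa2, Rasal2 and Nf1 stood at -0.02, 0.00, -0.03 and -0.05, and control replicate 2 was their highest library. With GC and length trends removed they did not pass (adjusted p = 0.152 to 0.933 in edgeR). Without control replicate 2 alone, 2 rose and 5 fell, where 2.33% and 1.82% of genes were called. Without pyruvate replicate 1 alone, 0 did, where 0.00666% of genes were called. Pyruvate replicate 1 was the lowest library for 53 of the 117, and for 14 of the 28 early and ERK-induced genes and 0 of the 9 Ras GTPase-activating proteins, against the 23.4% given above for all genes.

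By GENCODE M21 on GRCm38, the members lie on 7 chromosomes. Dusp4 (ENSMUSG00000031530) spans 34807297 to 34819894 on chromosome 8, Dusp5 (ENSMUSG00000034765) 53529109 to 53542431 on chromosome 19 and Dusp6 (ENSMUSG00000019960) 99263231 to 99267489 on chromosome 10. Spry1 (ENSMUSG00000037211) spans 37639947 to 37644598 on chromosome 3, Spry2 (ENSMUSG00000022114) 105891947 to 105896819 on chromosome 14, Spry4 (ENSMUSG00000024427) 38586247 to 38601415 on chromosome 18 and Spred1 (ENSMUSG00000027351) 117121374 to 117182279 on chromosome 2. Egr1 (ENSMUSG00000038418) spans 34859823 to 34864984 on chromosome 18, Egr2 (ENSMUSG00000037868) 67535475 to 67542188 on chromosome 10 and Egr3 (ENSMUSG00000033730) 70077203 to 70082614 on chromosome 14. Dusp6 and Egr2, Spry2 and Egr3, and Spry4 and Egr1 share a chromosome.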

How the data were processed

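RNA of 6 GS cell libraries, 3 per group, was isolated by TRIzol and columns and sequenced from stranded mRNA libraries, per the labels' protocols. The table the authors deposited holds raw counts for 32285 Ensembl genes. Per the submitters' processing notes, mm10 was used, with HTSeq 2.0.5, STAR 2.7.11a, cutadapt 4.6 and bcl2fastq 2.20. No annotation release, strand setting or filter is named there. Another 3 columns match none of the 6 samples analysed here and were not used.

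Counts were fitted in R 4.3.3 with edgeR 4.0.16: filterByExpr with a minimum count of 10, TMM factors, robust quasi-likelihood test without covariates, Benjamini-Hochberg adjustment at 0.05 over the 14912 genes tested. Each SE was taken as the absolute log2 fold change over the root of its F statistic. CPM are TMM-normalized, log2 CPM of single libraries use a prior count of 2, and lengths, GC content and positions come from GENCODE M21. Library pairs of a group differed by more than sampling noise (chi-square per gene 2.97 to 43.3), so none was a repeat count of another. Each counted as 1 sample, though this does not show that they came from separate cultures. The fits were tested on simulated counts with the same dispersion for all genes. No departing library and no GC or length trend was simulated, so how the fits handle these was not tested.

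The members and lists were chosen with earlier results of these data known. Named pathway genes are the 3 of lowest p per list with a mean of at least 1 CPM, and the 5 like genes have at least 5 CPM and a name that is no model or clone. Alternatives were DESeq2 1.42.0 as test or for size factors, library totals, other filters, a replicate block and leaving out each library. Chosen after seeing the data were leaving out pyruvate replicate 1 and control replicate 2 together, and removing GC and length trends by splines with 5 degrees of freedom.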

Additional observations from a re-analysis of the deposited data

How the results depend on the processing

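The number of genes called was 8 and moved to 14 with library totals alone, 83 with no filter beyond 1 count, 317 with DESeq2, 589 with GC and length trends removed, 3520 without pyruvate replicate 1 and control replicate 2 together, and to between 0 and 625 with each library left out in turn. Of the pathway lists, 0 genes were called, against 2 with library totals alone, with no filter and with DESeq2, 8 with trends removed, 41 without both libraries, and 0 to 7 with each library left out. Of the members 0 were called, against 2 without both libraries, where their median log2 fold change was 0.0225 in place of -0.24. It lay between -0.37 and -0.05 with each library left out. The cause of these moves was not tested. DESeq2's size factors and a filter of 5 CPM in 3 libraries left all of these counts within 1.5 times. Replicate numbers shared between the groups gave correlations of deviations of 0.31, 0.31 and -0.07, and differing numbers gave -0.39 to 0.21. The labels give no pairing, and whether libraries of the same number share a batch was not tested. With the replicate block 265 genes were called, 2 of the pathway lists and 1 of the members, Egr3. Of 431 single-gene values under the alternatives, 403 kept their side of the threshold or moved by less than the spread. Another 27, all of genes in the pathway lists, passed it newly, and 1, Spred1 without both libraries (0.12), moved. The 403 take in Egr2 and Egr3 without both libraries and Egr3 with the replicate block, though these passed the threshold. They also take in changes of sign, such as Dusp6 without both libraries. The members' SE of 0.09 to 0.23 in log2 with 3 libraries per group limits which differences can be detected.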

Other observations

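Pyruvate replicate 1 was not low in every gene of the pathway. Kit, a receptor tyrosine kinase that marks differentiating spermatogonia and was chosen after its values were seen, had 45.5, 21.8 and 21.8 CPM in pyruvate replicates 1, 2 and 3, against 37.9, 47.1 and 36.1 CPM in control replicates 1, 2 and 3. Replicate 1 thus lay with the controls and its mates below them. Jund, an AP-1 subunit also chosen after its values were seen, had 259, 194 and 184 CPM in the pyruvate libraries and 271, 205 and 248 CPM in the control libraries. Egr4, the remaining Egr factor and likewise chosen afterwards, had 389, 352 and 346 CPM in the pyruvate libraries and 420.5, 329 and 375 CPM in the control libraries, so that it did not share the low value of Egr1, Egr2 and Egr3 in replicate 1.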
